A study of Dipsacus asperoides with 9 samples.

Results

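In roots of Dipsacus asperoides, 4 unigenes with the names of monoterpene or sesquiterpene synthases were examined in 9 RNA-Seq libraries. They were TRINITY_DN3186_c0_g1 (alpha-farnesene synthase, best match in Camellia sinensis), TRINITY_DN16982_c0_g1 (alpha-farnesene synthase-like, Camellia sinensis), TRINITY_DN19216_c0_g1 (myrcene synthase, chloroplastic-like, Ziziphus jujuba) and TRINITY_DN10943_c0_g1 (sesquiterpene synthase 5, Valeriana officinalis). These 4 unigenes were picked by identifier out of 65535 in the table, with their levels at the 3 stages already known. Their levels and stage differences are therefore a description, without a test. A unigene is a transcript group assembled from the reads, and its name is that of the best protein match, so the product of none of the 4 enzymes is known from these data.

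D. asperoides is a medicinal herb whose roots hold the triterpenoid asperosaponin VI, and the study compared root stages to follow the genes behind its formation. Wild-type roots were sampled at the 1-leaf stage (L1), at the 2-leaf stage (L2) and from plants grown for 7 months (M7), with 3 biological replicates per stage. Purified mRNA of roots was sequenced, so fewer cells of a type and less RNA per cell cannot be told apart. Stage, plant age and growth period changed together at M7. Values are given in FPKM, which are scaled by transcript length and by the reads of the library, so levels can be set side by side between unigenes.

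Terpene synthases turn prenyl diphosphates into the hydrocarbon or alcohol skeletons of terpenes. Monoterpene synthases such as myrcene synthase use geranyl diphosphate, mostly in plastids. Sesquiterpene synthases such as alpha-farnesene synthase use farnesyl diphosphate, mostly in the cytosol. Farnesyl diphosphate is also the substrate of squalene synthase, the entry to sterols and triterpenes. Alpha-farnesene and myrcene are acyclic volatiles, and their synthases are known in several plants from responses to wounding and jasmonate. Valeriana belongs to the same family as Dipsacus and is known for sesquiterpenes in its roots.

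The libraries differed in breadth. Unigenes at 1 FPKM or more numbered 26048 to 28468 at L1, 32849 to 34173 at L2 and 13430 to 18794 at M7. Replicate 1 of M7 had the fewest, and its 100 most expressed unigenes took 48.1% of the summed FPKM, against 34.9% to 35.3% in the other M7 libraries. Replicate 3 of L1 had the highest such share in its stage, at 34.2% against 25.3% to 26.5%. The 29 unigenes of a root list (Casparian strip membrane proteins, high-affinity nitrate transporters and PHO1 phosphate transporters) summed to 210.4 to 217 FPKM at L1, 243 to 256 at L2 and 107 to 173 at M7. Of these, 16 to 21 reached 1 FPKM at L1, 15 to 20 at L2 and 4 to 5 at M7, and 17 were at 0 in all 3 M7 libraries, among them 3 of the 6 named Casparian strip membrane proteins. Some of these 17 were matched to Quercus suber or to the order Caryophyllales. Not all of the list fell: the nitrate transporter TRINITY_DN16657_c0_g1 had a mean of 5.41 FPKM at L1 and 45.1 at M7. Another, TRINITY_DN13576_c0_g1, had 60.9 and 61.4. The 56 unigenes of a leaf list (chlorophyll-binding, photosystem and RuBisCO small subunit names) summed to 279 to 325 FPKM at L1, 124 to 135 at L2 and 1582 to 3567 at M7. The part of these differences in the values of M7 given here was not tested. Unigenes at 0 in all 3 M7 libraries made up 34.98% of the 34925 unigenes tested, and 88.75% of those matched to Hordeum vulgare, Quercus suber or the order Caryophyllales. None of the 4 synthase unigenes has its best match in those species.

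All 4 unigenes had a lower mean at M7 than at L1 and at L2, and a lower mean at L2 than at L1. The libraries of TRINITY_DN10943_c0_g1 overlapped between L1 and L2. The alpha-farnesene synthase unigene TRINITY_DN3186_c0_g1 had the highest mean of the 4 at each stage. The myrcene synthase-like unigene showed the widest ratio between seedling stages, and the sesquiterpene synthase 5 unigene was listed at 0 at M7. The values by library follow, in the order of the replicate numbers of each stage.

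**Figure D1:**
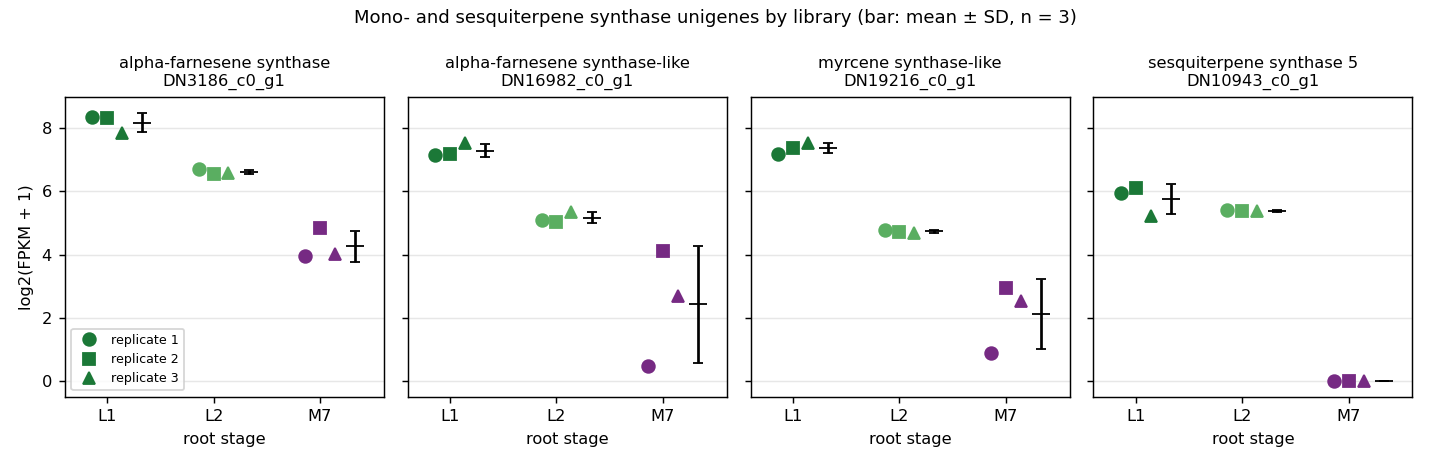
Level of each of the 4 terpene synthase unigenes in log2(FPKM + 1), with a panel per unigene, the root stages L1, L2 and M7 on the x axis, a point per library and a bar for the mean ± SD (n = 3). The panels of TRINITY_DN3186_c0_g1, TRINITY_DN16982_c0_g1 and TRINITY_DN19216_c0_g1 step down from L1 to L2 to M7, while TRINITY_DN10943_c0_g1 lies near the same level at L1 and L2 and at 0 in all 3 M7 libraries.

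TRINITY_DN3186_c0_g1, named for the sesquiterpene synthase that makes alpha-farnesene, had 326, 323 and 227 FPKM at L1, 103, 93.7 and 94.9 FPKM at L2, and 14.5, 27.6 and 15.1 FPKM at M7. The 3 stages did not overlap, and the spread was smallest at L2. The means were 292 ± 56.0 FPKM at L1, 97.3 ± 5.23 at L2 and 19.0 ± 7.41 at M7 (SD, n = 3). The L1 mean was 15.3 times the M7 mean. On the log2(FPKM + 1) scale, on which differences understate the change of low values, the difference was -1.56 (standard error 0.28) for L2 versus L1, -3.91 (0.28) for M7 versus L1 and -2.35 (0.28) for M7 versus L2. By mean FPKM it stood at rank 250 of the 34925 tested unigenes at L1, at rank 936 at L2 and at rank 3727 at M7.

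TRINITY_DN16982_c0_g1, whose match is also an alpha-farnesene synthase, had 141, 145 and 186 FPKM at L1, 33.2, 32.1 and 40.0 FPKM at L2, and 0.38, 16.5 and 5.41 FPKM at M7. The stages did not overlap, but the M7 libraries spread widely, with replicate 1 lowest and replicate 2 highest. The means were 157 ± 24.9 FPKM at L1, 35.1 ± 4.28 at L2 and 7.42 ± 8.23 at M7 (SD, n = 3), so the M7 spread was as large as the M7 level. The log2 difference was -2.13 (standard error 0.77) for L2 versus L1, -4.87 (0.77) for M7 versus L1 and -2.74 (0.77) for M7 versus L2. The fit pooled the spread of the 3 stages, so the wide M7 spread also enters the standard error of L2 versus L1. Without replicate 1 of M7, the difference of M7 was -3.89 against L1 and -1.76 against L2. The direction was the same, but the size of the last step depended on that library.

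TRINITY_DN19216_c0_g1, named for the monoterpene synthase that makes myrcene, had 145, 167 and 183 FPKM at L1, 26.7, 25.4 and 24.7 FPKM at L2, and 0.83, 6.77 and 4.76 FPKM at M7. Again the stages did not overlap and replicate 1 of M7 was lowest. The log2 difference was -2.64 (standard error 0.48) for L2 versus L1, -5.25 (0.48) for M7 versus L1 and -2.61 (0.48) for M7 versus L2. The mean at L1 was 6.45 times that at L2 and 40.0 times that at M7, the widest ratios of the 3 unigenes that were above 0 at M7. Without replicate 1 of M7, the log2 difference of M7 was -4.63 against L1 and -1.99 against L2.

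TRINITY_DN10943_c0_g1, whose match is a sesquiterpene synthase of valerian, had 61.01, 68.0 and 36.2 FPKM at L1 and 41.8, 40.3 and 40.7 FPKM at L2. It was listed at 0 at M7 in each of the 3 libraries. L1 and L2 overlapped, since replicate 3 of L1 lay below all L2 libraries while the other L1 libraries lay above them. The means were 55.1 ± 16.7 FPKM at L1 and 40.9 ± 0.774 at L2 (SD, n = 3), and the log2 difference of L2 versus L1 was -0.37 (standard error 0.25). Without replicate 3 of L1 it was -0.64. No fold is given for M7, because the depth behind a value listed at 0 is unknown. Among the 2478 tested unigenes with an L1 mean of 30 to 100 FPKM, 109 (4.4%) were at 0 in all 3 M7 libraries, and without matches to Hordeum vulgare, Quercus suber or the order Caryophyllales the share was 3.45%.

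The number of the 4 unigenes whose libraries did not overlap between stages can be read only beside the background of all tested unigenes. L2 lay below L1 for 3 of the 4, against 21.8% of all tested unigenes. M7 lay below L1 for 4 of the 4, against 38.6%, and below L2 for 4 of the 4, against 58.5%. The unigenes had been chosen with these values in view, so nothing is read from the counts. Of all tested unigenes, 2.27% had a lower log2 difference of M7 versus L1 than TRINITY_DN3186_c0_g1, 0.81% than TRINITY_DN16982_c0_g1 and 0.56% than TRINITY_DN19216_c0_g1. For L2 versus L1 the shares were 6.84%, 3.06% and 1.48% in the same order, and 26.29% for TRINITY_DN10943_c0_g1. For M7 versus L2 they were larger for the unigenes above 0 at M7, at 15.09%, 9.84% and 11.38%. A unigene of low level cannot show a large fall on this scale, so the shares depend on the many low unigenes. Ranks from the lowest were also taken among the 4980 tested unigenes with a stage mean above 30 FPKM. For these 3 unigenes they were 475, 279 and 197 for M7 versus L1, in the same order. The ranks were 239, 122 and 76 for L2 versus L1, and 1212, 996 and 1068 for M7 versus L2. The median log2 difference of all tested unigenes was 0.32 for L2 versus L1, -0.48 for M7 versus L1 and -1.07 for M7 versus L2. Median ratio rescaling of the libraries moved these medians to 0.11, -0.24 and -0.68, and quantile normalization to -0.04, 0.17 and 0.05. Each of the 4 unigenes kept its direction in each of the 3 comparisons in all 8 planned settings, both rescalings included, and in all 9 fits with a library left out.

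The order of the 4 levels changed between stages. At L1, TRINITY_DN3186_c0_g1 lay above the other unigenes in every library, and TRINITY_DN16982_c0_g1 and TRINITY_DN19216_c0_g1 overlapped with each other. TRINITY_DN10943_c0_g1 was lowest at L1. At L2 it came second, its lowest library (40.3 FPKM) just above the highest of TRINITY_DN16982_c0_g1 (40.0 FPKM), and TRINITY_DN19216_c0_g1 was lowest. At M7 the ranges of TRINITY_DN3186_c0_g1 and TRINITY_DN16982_c0_g1 overlapped, as did those of TRINITY_DN16982_c0_g1 and TRINITY_DN19216_c0_g1.

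Within a library, the ratio of TRINITY_DN16982_c0_g1 to TRINITY_DN19216_c0_g1 was 0.871 to 1.02 at L1 and 1.25 to 1.62 at L2. These ranges did not overlap, so the pair was at about equal FPKM at L1 and the farnesene synthase-like unigene was the higher at L2. At M7 the ratio was 0.458, 2.43 and 1.14, and the pair had no common order. The ratio of TRINITY_DN3186_c0_g1 to TRINITY_DN19216_c0_g1 was 1.24 to 2.24 at L1, 3.69 to 3.87 at L2 and 3.16 to 17.4 at M7. The ratio of TRINITY_DN10943_c0_g1 to TRINITY_DN3186_c0_g1 was 0.160 to 0.211 at L1 and 0.404 to 0.430 at L2. In replicate 3 of L1, TRINITY_DN3186_c0_g1 and TRINITY_DN10943_c0_g1 were at their lowest of the stage and TRINITY_DN16982_c0_g1 and TRINITY_DN19216_c0_g1 at their highest. Hence the unigenes moved in opposite directions within L1, in a library that also differed in its most expressed unigenes.

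Over the 9 libraries, Pearson's r of log2(FPKM + 1) was 0.979 between TRINITY_DN16982_c0_g1 and TRINITY_DN19216_c0_g1, the highest of the 6 pairs. It was 0.972 between TRINITY_DN3186_c0_g1 and TRINITY_DN19216_c0_g1 and 0.944 between TRINITY_DN3186_c0_g1 and TRINITY_DN16982_c0_g1. TRINITY_DN10943_c0_g1 was at 0.838 with TRINITY_DN16982_c0_g1, 0.861 with TRINITY_DN19216_c0_g1 and 0.930 with TRINITY_DN3186_c0_g1. The points share the 3 stages, so these values are a description of the stage pattern.

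Summed over the 4 unigenes, the level was 673, 702 and 632 FPKM at L1, 205, 191 and 200.3 FPKM at L2, and 15.7, 50.8 and 25.2 FPKM at M7. The sum thus varied less at L1 than its single unigenes did. TRINITY_DN3186_c0_g1 made up 35.9% to 48.4% of the sum at L1, 47.4% to 50.4% at L2 and 54.3% to 92.3% at M7. The share of TRINITY_DN10943_c0_g1 was 5.7% to 9.7% at L1 and 20.3% to 21.0% at L2.

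**Figure D2:**
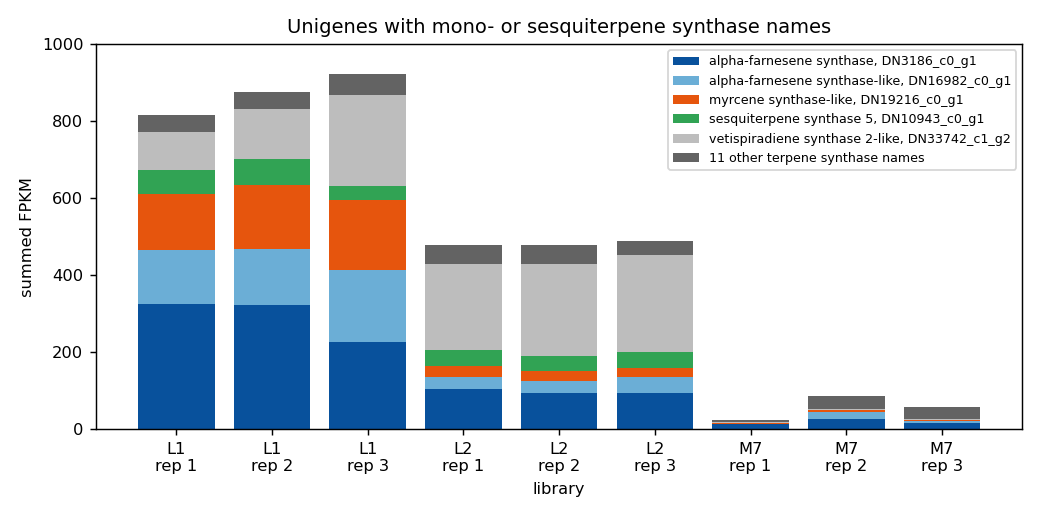
Summed FPKM of unigenes with mono- or sesquiterpene synthase names, or named only as terpene synthases, in each of the 9 libraries. The stacks show the 4 unigenes described here, the vetispiradiene synthase 2-like unigene and the remaining names. The whole stack stood between 816 and 921 FPKM at L1, between 478 and 490 at L2 and between 25.3 and 85.8 at M7, and the vetispiradiene synthase 2-like unigene took a larger part at L2 than at L1.

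A further 12 unigenes of the table carried mono- or sesquiterpene synthase names or were named only as terpene synthases. Of these, 11 passed the filter of 1 FPKM in at least 3 libraries. The plain name leaves the class of the product open. TRINITY_DN25434_c0_g2 and TRINITY_DN35828_c0_g1, both named in this way, share a Trinity component with copalyl diphosphate synthase names, counted below as diterpene synthases. Together the 12 unigenes summed to 143, 172 and 289 FPKM at L1, 273, 288 and 289 FPKM at L2, and 9.61, 35.0 and 32.7 FPKM at M7. The 4 unigenes described here therefore held 68.6% to 82.4% of all FPKM under such names at L1, 39.9% to 42.9% at L2 and 43.6% to 62.0% at M7. Most of the rest at L2 was a single unigene, the vetispiradiene synthase 2-like TRINITY_DN33742_c1_g2, named for a sesquiterpene synthase that supplies phytoalexins in Solanaceae.

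TRINITY_DN33742_c1_g2 had 99.1, 129 and 236 FPKM at L1, 225, 237 and 252 FPKM at L2, and 2.08, 1.13 and 0.75 FPKM at M7. L1 and L2 overlapped through replicate 3 of L1, and M7 lay far below both. Limma gave a log2 difference of 0.72 for L2 versus L1 (adjusted p = 0.141), -6.01 for M7 versus L1 (adjusted p = 7.18e-06) and -6.73 for M7 versus L2 (adjusted p = 1.23e-06). Without replicate 3 of L1, the difference of L2 was 1.07 (limma adjusted p = 0.0173). Its mean was higher at L2 than at L1, and the difference passed the test without that library but not with it, while TRINITY_DN3186_c0_g1, TRINITY_DN16982_c0_g1 and TRINITY_DN19216_c0_g1 were lower at L2. Pearson's r with it over the 9 libraries was 0.970 for TRINITY_DN10943_c0_g1 and 0.762 to 0.847 for the other unigenes.

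Of the 11 other names tested with limma at an adjusted p under 0.05, 0 were higher and 2 lower for L2 versus L1 (0 and 2 also at an unadjusted p under 0.05). The background of all tested unigenes was 26.1% higher and 14.8% lower. For M7 versus L1, 0 were higher and 5 lower (0 and 5 unadjusted), with a background of 9.37% higher and 35.1% lower. For M7 versus L2, 0 were higher and 4 lower (0 and 4 unadjusted), with a background of 7.71% higher and 52.6% lower. The shares that fell were 18.2%, 45.5% and 36.4% in the same order. The median log2 difference of the 11 was 0.04, -1.23 and -0.64. The count of 2 lower for L2 versus L1 was 1 when any library of L1 or L2, or replicate 2 of M7, was left out. For L2 versus L1, 1 name was higher without replicate 3 of L1, of L2 or of M7, and for M7 versus L2, 1 was higher without replicate 1 of M7. The counts of higher names also depended on the scaling: 1 name was higher for M7 versus L1 under median ratio rescaling and under quantile normalization.

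The other names were low. Terpene synthase 2 (TRINITY_DN17859_c0_g1) had 5.6, 9.05 and 6.66 FPKM at L1 and 15.5, 13.9 and 6.20 FPKM at L2 and was listed at 0 in all 3 M7 libraries, like TRINITY_DN10943_c0_g1. It fell for M7 versus L1 (limma adjusted p = 0.00015) and against L2 (limma adjusted p = 3.08e-05). For L2 versus L1 the log2 difference was 0.60 (limma adjusted p = 0.197), and 0.97 without replicate 3 of L2 (limma adjusted p = 0.0195). Terpene synthase (TRINITY_DN25434_c0_g2) had 3.76, 5.41 and 6.56 FPKM at L1 and at most 0.24 FPKM at L2, and was listed at 0 at M7. It fell for L2 versus L1 by 2.42 on the log2 scale (limma adjusted p = 1.52e-05). This unigene reached 1 FPKM only at L1, so it passed the filter through that stage alone, which favours a fall from L1. Nothing is read from this call, which is among the falls counted above. Sesquiterpene synthase 3 (TRINITY_DN10372_c0_g1), matched to valerian like TRINITY_DN10943_c0_g1, had 5.02 ± 0.596 FPKM at L1, 3.65 ± 0.243 at L2 and 0.160 ± 0.135 at M7 (SD, n = 3). It fell for M7 versus L1 (log2 difference -2.38, limma adjusted p = 2.52e-05) and against L2 (-2.01, limma adjusted p = 2.88e-05). Under quantile normalization the last value was -0.28 (limma adjusted p = 0.257).

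Further calls came from unigenes under 5 FPKM that were named after their values had been seen. Sesquiterpene synthase 2 (TRINITY_DN31564_c0_g1), also matched to valerian, had 3.6 ± 1.16 FPKM at L1 and 0.490 ± 0.197 at L2 (SD, n = 3; log2 difference -1.60, limma adjusted p = 0.0422). The (+)-delta-cadinene synthase isozyme A-like unigene (TRINITY_DN33742_c0_g1) had 0.45 to 3.87 FPKM at L1 and 1.02 to 2.62 at L2 and was listed at 0 at M7 (limma adjusted p = 0.0281 against L1 and 0.0186 against L2).

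R-linalool synthase (TRINITY_DN28631_c0_g2), a monoterpene synthase by name like the myrcene synthase-like unigene, had its lowest library at L1 and its highest at M7. It had 12.1, 11.3 and 3.25 FPKM at L1, 15.0, 17.2 and 17.1 FPKM at L2, and 5.82, 18.3 and 14.8 FPKM at M7. No comparison passed the test (limma adjusted p = 0.174, 0.476 and 0.488 for L2 versus L1, M7 versus L1 and M7 versus L2). For M7 versus L1 the log2 difference was 0.53, and it reached 1.12 under median ratio rescaling (limma adjusted p = 0.0257) and 1.28 under quantile normalization (limma adjusted p = 0.0199). Terpene synthase like-13 (TRINITY_DN2616_c0_g1) had means of 5.33 ± 1.18 FPKM at L1, 5.77 ± 0.197 at L2 and 4.85 ± 3.35 at M7 (SD, n = 3) and passed no test (limma adjusted p = 0.883, 0.672 and 0.462).

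**Figure D3:**
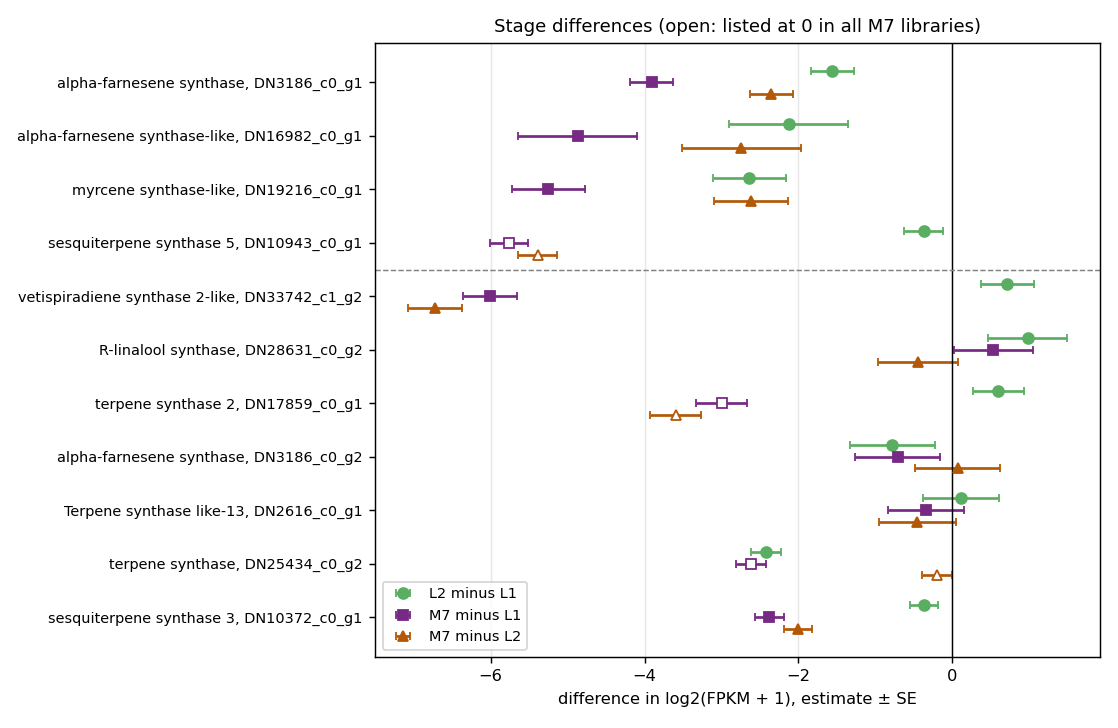
Difference in log2(FPKM + 1) between stages, estimate ± SE from limma, for the 4 unigenes described here and other unigenes with mono-, sesqui- or plain terpene synthase names. Open symbols mark unigenes listed at 0 in all 3 M7 libraries, whose M7 differences depend on the pseudocount. For L2 versus L1, TRINITY_DN19216_c0_g1 (-2.64) and TRINITY_DN16982_c0_g1 (-2.13) lie far to the left, TRINITY_DN10943_c0_g1 (-0.37) near 0 and the vetispiradiene synthase 2-like unigene (0.72) to the right.

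Unigenes of the same Trinity component as one of the 4 can be pieces or near copies of it, and RSEM may then split reads between them, so single values are uncertain to that extent. The only named unigene of this kind was TRINITY_DN3186_c0_g2, also an alpha-farnesene synthase matched to Camellia sinensis. It had 4.63, 3.69 and 9.48 FPKM at L1, 3.03, 3.59 and 1.96 FPKM at L2, and 0.66, 5.56 and 4.80 FPKM at M7. It was thus far below TRINITY_DN3186_c0_g1 in the seedling stages and passed no test (limma adjusted p = 0.304, 0.357 and 0.953 for L2 versus L1, M7 versus L1 and M7 versus L2). Under quantile normalization its log2 difference was -1.25 for L2 versus L1 (limma adjusted p = 0.0346) and 1.5 for M7 versus L2 (limma adjusted p = 0.0142). TRINITY_DN10943_c1_g2, without a description, had 1.38 to 5.37 FPKM at L1 and 3.25 to 8.48 at L2 and was listed at 0 at M7, like TRINITY_DN10943_c0_g1. The unigenes TRINITY_DN16982_c2_g1, TRINITY_DN19216_c0_g2 and TRINITY_DN10943_c0_g2 had at most 2.41, 1.27 and 1.5 FPKM in any library.

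The pathway lists around the 4 unigenes were then counted with limma at an adjusted p under 0.05, against the backgrounds given above. Precursors of sesquiterpenes and triterpenes come from the mevalonate (MVA) pathway in the cytosol. Of 22 tested MVA unigenes, 8 rose and 2 fell for L2 versus L1, 5 rose and 5 fell for M7 versus L1, and 5 rose and 10 fell for M7 versus L2. Without matches to Hordeum vulgare, Quercus suber or the order Caryophyllales, 15 were tested, of which 3 rose and 0 fell, 5 rose and 3 fell, and 5 rose and 3 fell in the same order, so that more of the rises for L2 versus L1 and of the falls for M7 versus L2 lay in the unigenes with such matches than in the others. An acetoacetyl-CoA thiolase (TRINITY_DN2104_c0_g1), the first enzyme of the pathway, rose from 19.8 ± 10.8 FPKM at L1 to 168 ± 56.9 at M7 (SD, n = 3; log2 difference 3.12, limma adjusted p = 0.000401). An HMG-CoA reductase (TRINITY_DN2702_c0_g2), the enzyme of its main regulated step, fell from 52.4 ± 1.38 FPKM at L1 to 6.38 ± 5.53 at M7 (log2 difference -3.10, limma adjusted p = 0.000528), with 22.6 ± 0.917 at L2. Unigenes with the HMG-CoA reductase name included matches to Quercus suber (TRINITY_DN31424_c0_g1, TRINITY_DN36145_c0_g1) and Chenopodium quinoa (TRINITY_DN25936_c0_g1). The Quercus suber matches had means of 0.043 and 0 FPKM at L1, 7.33 and 5.29 at L2 and 0 at M7. The only fall of this name for L2 versus L1 lay among such matches, and no count was made without them. With them, the unigenes of this name differed in direction. Of 11 tested, 3 rose and 1 fell for L2 versus L1, 2 rose and 4 fell for M7 versus L1, and 2 rose and 5 fell for M7 versus L2. Of those picked with their values in view, TRINITY_DN2563_c0_g1 had 11.6, 10.98 and 2.57 FPKM at L1 and 21.1, 40.4 and 29.7 FPKM at M7 (log2 difference 1.90, limma adjusted p = 0.0122), and TRINITY_DN1647_c0_g1 rose for L2 versus L1 (log2 difference 2.10, limma adjusted p = 0.0384).

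Precursors of monoterpenes come mainly from the methylerythritol phosphate (MEP) pathway in plastids. Of 10 tested MEP unigenes, 1 rose and 1 fell for L2 versus L1, 1 rose and 6 fell for M7 versus L1, and 2 rose and 5 fell for M7 versus L2. The (E)-4-hydroxy-3-methylbut-2-enyl-diphosphate synthase TRINITY_DN3192_c0_g2, a late enzyme of the pathway, had 73.7, 83.9 and 169 FPKM at L1. Its mean fell from 109 ± 52.5 FPKM at L1 to 19.7 ± 5.14 at M7 (SD, n = 3; log2 difference -2.33, limma adjusted p = 0.000582). It was highest in replicate 3 of L1, as were TRINITY_DN16982_c0_g1 and TRINITY_DN19216_c0_g1.

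Of 17 tested unigenes of prenyl diphosphate synthesis, 5 rose and 0 fell for L2 versus L1, 3 rose and 4 fell for M7 versus L1, and 2 rose and 5 fell for M7 versus L2. Without matches to Hordeum vulgare, Quercus suber or the order Caryophyllales, 13 were tested, of which 2 rose and 0 fell, 3 rose and 3 fell, and 2 rose and 2 fell. The farnesyl pyrophosphate synthase TRINITY_DN2830_c0_g1, which makes the substrate of sesquiterpene synthases and was picked with its values in view, had 157, 159 and 94.3 FPKM at L1, 244, 239.9 and 249 FPKM at L2, and 67.0, 386 and 304 FPKM at M7. It passed no test (limma adjusted p = 0.287, 0.505 and 0.705 for L2 versus L1, M7 versus L1 and M7 versus L2), and replicate 1 of M7 stood apart from the other M7 libraries. A geranyl pyrophosphate synthase (TRINITY_DN30788_c0_g1), of the step before monoterpenes, was at 0.890 ± 0.779 FPKM at L1 and rose to 15.4 ± 10.02 at M7 (SD, n = 3; log2 difference 2.92, limma adjusted p = 0.00464). The large subunit of geranyl diphosphate synthase (TRINITY_DN29395_c0_g2), also picked with its values in view, had 17.9, 21.1 and 39.3 FPKM at L1, 9.19, 7.98 and 13.7 FPKM at L2, and 3.01, 14.9 and 15.4 FPKM at M7, and it passed no test (limma adjusted p = 0.129, 0.0934 and 0.893).

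Squalene synthase uses the same farnesyl diphosphate as sesquiterpene synthases, and the other squalene and triterpene steps counted here come after it. Of 6 tested unigenes of the squalene branch, 2 rose and 1 fell for L2 versus L1, 2 rose and 1 fell for M7 versus L1, and 2 rose and 2 fell for M7 versus L2. Without matches to Hordeum vulgare, Quercus suber or the order Caryophyllales, 5 were tested. Of these, 2 rose and 1 fell, 1 rose and 1 fell, and 1 rose and 2 fell in the same order. The squalene monooxygenase TRINITY_DN3327_c0_g1 had means of 255 FPKM at L1, 133 at L2 and 163 at M7, and TRINITY_DN37933_c0_g1 had 4.84, 13.8 and 0.653. Squalene epoxidase 1 (TRINITY_DN26458_c0_g2), matched to Panax vietnamensis, had means of 17.2 FPKM at L1, 12.7 at L2 and 60.0 at M7. A squalene monooxygenase-like unigene (TRINITY_DN13177_c0_g1), matched to Quercus suber, rose from 86.1 ± 29.9 FPKM at L1 to 519 ± 62.1 at M7 (SD, n = 3; log2 difference 2.64, limma adjusted p = 0.000114). Of 13 tested triterpene cyclases, 4 rose and 1 fell for L2 versus L1, 0 rose and 4 fell for M7 versus L1, and 0 rose and 9 fell for M7 versus L2. Without such matches, 12 were tested, of which 3 rose and 1 fell, 0 rose and 4 fell, and 0 rose and 8 fell. A beta-amyrin synthase (TRINITY_DN2802_c1_g1), which makes the oleanane skeleton, was at 87.2 ± 7.78 FPKM at L1, 229 ± 20.7 at L2 and 53.3 ± 26.2 at M7 (SD, n = 3). It rose for L2 versus L1 (log2 difference 1.38, limma adjusted p = 0.00656) and fell for M7 versus L2 (-2.18, limma adjusted p = 0.000382), but neither passed under median ratio rescaling (limma adjusted p = 0.162 and 0.0815). For L2 versus L1, TRINITY_DN3186_c0_g1, TRINITY_DN16982_c0_g1 and TRINITY_DN19216_c0_g1 had the opposite direction.

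**Figure D4:**
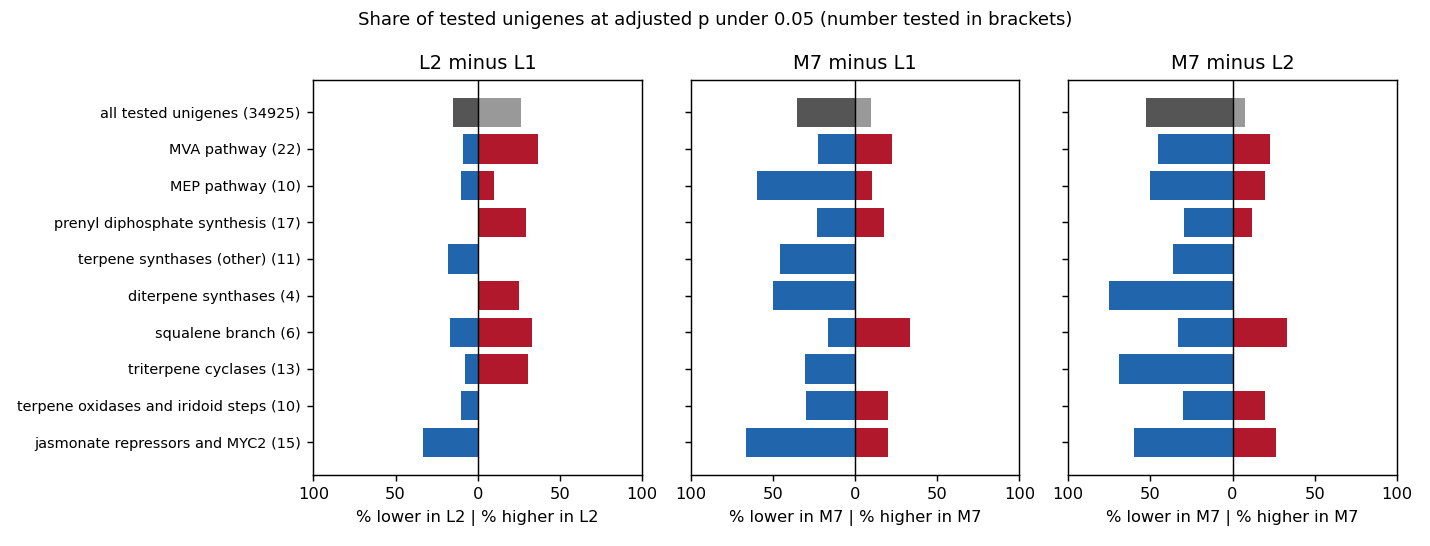
Percent of the tested unigenes of each pathway list that were lower (left) or higher (right) at an adjusted p under 0.05 from limma, in a panel for each comparison, with the number tested in brackets and all 34925 tested unigenes as the top bar. The background bar is longest on the left for M7 versus L2 (52.6%), and the 11 other terpene synthase names have no bar on the right in any panel.

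Diterpene synthases share the enzyme family with the 4 unigenes and lead to gibberellins. Of 4 tested, 1 rose and 0 fell for L2 versus L1, 0 rose and 2 fell for M7 versus L1, and 0 rose and 3 fell for M7 versus L2. An ent-copalyl diphosphate synthase (TRINITY_DN35828_c0_g4) was at 3.38 ± 0.456 FPKM at L1, 10.5 ± 0.122 at L2 and 0.813 ± 0.194 at M7 (SD, n = 3). It rose for L2 versus L1 (log2 difference 1.39, limma adjusted p = 0.00033) and fell for M7 versus L2 (-2.67, limma adjusted p = 5.23e-06).

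Steps after the synthases were counted as terpene oxidases and iridoid steps. Of 10 tested, 0 rose and 1 fell for L2 versus L1, 2 rose and 3 fell for M7 versus L1, and 2 rose and 3 fell for M7 versus L2. The geraniol 8-hydroxylase-like unigene TRINITY_DN10656_c0_g2, of a P450 family that oxidizes the monoterpene alcohol geraniol toward iridoids, was at 32.9 ± 4.78 FPKM at L1, 30.97 ± 2.89 at L2 and 0.693 ± 0.605 at M7 (SD, n = 3). It fell for M7 versus L1 (log2 difference -4.37, limma adjusted p = 9.84e-06). An 8-hydroxygeraniol dehydrogenase-like unigene (TRINITY_DN1905_c0_g1), of the next step, rose from 9.71 ± 0.851 FPKM at L1 to 78.3 ± 46.5 at M7 (log2 difference 2.63, limma adjusted p = 0.0029).

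TIFY (JAZ) proteins repress jasmonate responses, and their genes are themselves induced by jasmonate in Arabidopsis, while MYC2 is a transcription factor they bind. Of 15 tested unigenes with these names, 0 rose and 5 fell for L2 versus L1, 3 rose and 10 fell for M7 versus L1, and 4 rose and 9 fell for M7 versus L2. Without matches to Hordeum vulgare, Quercus suber or the order Caryophyllales, 9 were tested, of which 0 rose and 1 fell, 3 rose and 4 fell, and 4 rose and 3 fell. The TIFY 5A-like unigene TRINITY_DN31583_c0_g1 had 2415, 2498 and 1954 FPKM at L1, 652, 611 and 675 FPKM at L2, and 4.99, 43.0 and 64.0 FPKM at M7. Like TRINITY_DN3186_c0_g1, it was lowest in replicate 3 among the L1 libraries. It fell for M7 versus L1 (log2 difference -6.46, limma adjusted p = 0.000204), while for L2 versus L1 the value was -1.82 (limma adjusted p = 0.095). Without replicate 1 of M7 in the fit, the same value had an adjusted p of 0.000168 from limma. The TIFY 6B-like unigene TRINITY_DN320_c0_g1 rose from 140 ± 44.5 FPKM at L1 to 403 ± 130.1 at M7 (SD, n = 3; log2 difference 1.53, limma adjusted p = 0.00384).

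For each of the 4 unigenes, the named unigenes most like it in pattern were taken by Pearson's r of log2(FPKM + 1) over the 9 libraries, among 10044 candidates. For TRINITY_DN3186_c0_g1 these were an acyl-protein thioesterase 2-like unigene (TRINITY_DN26340_c0_g1, r = 0.9992), plasma membrane ATPase 4 (TRINITY_DN25254_c0_g2, 0.995), xyloglucan endotransglucosylase/hydrolase protein 23 (TRINITY_DN3398_c0_g3, 0.9948), an E3 ubiquitin-protein like unigene (TRINITY_DN10404_c0_g1, 0.9929) and cytochrome P450 71A1-like (TRINITY_DN23728_c1_g1, 0.9927). The thioesterase-like unigene had 65.0, 63.7 and 44.3 FPKM at L1, 18.2, 18.0 and 20.0 FPKM at L2, and 1.96, 4.47 and 1.86 FPKM at M7. It shared the lower value in replicate 3 of L1 and the higher value in replicate 2 of M7.

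For TRINITY_DN16982_c0_g1 they were transcription factor AS1 (TRINITY_DN1649_c0_g1, matched to Quercus suber, r = 0.9961), a glucose-6-phosphate 1-epimerase (TRINITY_DN3267_c0_g1, 0.9938), a RING finger and transmembrane domain protein (TRINITY_DN19503_c0_g1, 0.9914), a glucan endo-1,3-beta-glucosidase 5-like unigene (TRINITY_DN26693_c0_g1, 0.9914) and an RNA polymerase subunit RPAC2-like unigene (TRINITY_DN3582_c0_g1, 0.9911). For TRINITY_DN19216_c0_g1 they were an acid phosphatase 1-like unigene (TRINITY_DN1705_c0_g1, 0.9969), mitochondrial uncoupling protein 5 (TRINITY_DN1822_c0_g2, 0.9947), SRO5 (TRINITY_DN2077_c0_g1, 0.9937), a serine/threonine-protein kinase (TRINITY_DN18734_c0_g1, 0.9932) and calcium-transporting ATPase 2 (TRINITY_DN1639_c0_g1, 0.9929).

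For TRINITY_DN10943_c0_g1 they were NRT1/PTR family 5.2-like (TRINITY_DN3897_c0_g4, r = 0.9994), germin-like protein 2-2 (TRINITY_DN1545_c0_g1, 0.9993), peroxidase 64-like (TRINITY_DN1954_c0_g1, 0.9992), cytochrome P450 86B1-like (TRINITY_DN2090_c0_g1, 0.9991) and germin-like protein 2-1 (TRINITY_DN27736_c0_g1, 0.9989). The lists of the 4 unigenes had no unigene in common. Of the 10044 candidates, 113 reached an r of 0.99 with TRINITY_DN10943_c0_g1, 10 with TRINITY_DN3186_c0_g1, 7 with TRINITY_DN16982_c0_g1 and 11 with TRINITY_DN19216_c0_g1. The values describe a likeness over these 9 libraries only.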

How the data were processed

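RNA-Seq values of 9 root libraries were analysed. The authors used FastQC and fastx_toolkit to check and trim reads, Trinity for the de novo assembly, RSEM to quantify unigenes and Blastx against NR to name them. The deposited values are called FPKM here, although the methods name both TPM and FPKM. They are given to 2 decimals rather than as counts, and the depth behind a value is unknown. The 65535 unigenes are part of the assembly. Listed stage means are the authors' own and were not used.

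The 34925 unigenes that reached 1 FPKM in 3 or more of the 9 libraries were fitted as log2(FPKM + 1) with limma 3.58.1 in R 4.3.3, with a mean per stage and a trend in the variance. Benjamini-Hochberg adjustment covered all 34925, with calls under 0.05. P-values weigh a stage difference against the spread between replicate libraries, pooled over the 3 stages in the fit, also where only 2 stages are compared. The fit was tested on simulated data.

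The 4 unigenes and all lists were chosen with earlier results of these data known. Named unigenes were those of the same Trinity component and the other mono-, sesqui- and plain terpene synthase names with a stage mean of at least 5 FPKM. Added to these were up to 2 rises and 2 falls per pathway list among calls with a stage mean of at least 5 FPKM, and the 5 most correlated per unigene. Of the pathway candidates, only examples are named. Alternatives were pseudocounts of 0.1 and 5, no filter, median ratio rescaling, quantile normalization, a replicate block, fits restricted to the stages compared, no variance trend and each library left out.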

Additional observations from a re-analysis of the deposited data

How the results depend on the processing

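Depth is unknown, only part of the assembly was analysed, and each stage has 3 libraries. The median log2 difference of the 4 unigenes, which includes a unigene listed at 0 at M7 and so depends on the pseudocount, was -1.84 for L2 versus L1, -5.06 for M7 versus L1 and -2.68 for M7 versus L2. The M7 values were -5.59 and -3.17 with a pseudocount of 0.1, and -3.78 and -2.02 with 5. Under quantile normalization they were -4.35 and -1.89, and M7 versus L2 was -2.05 under median ratio rescaling. With a library left out, the medians ranged from -1.88 to -1.80, from -5.70 to -4.26 and from -3.31 to -2.09.

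Of the 11 other terpene synthase names, 1 was lower for L2 versus L1 with a pseudocount of 0.1 and 1 without the filter, and 4 were lower under quantile normalization. For L2 versus L1, 1 was higher with only the stages compared. For M7 versus L1, 1 was higher under median ratio rescaling and 1 under quantile normalization. For M7 versus L2, 2 were higher and 2 lower under quantile normalization. With a library left out, 0 to 1, 0 to 0 and 0 to 1 were higher and 1 to 2, 4 to 5 and 3 to 5 lower.

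Of all unigenes, 9128 were higher and 5170 lower for L2 versus L1, 3271 and 12268 for M7 versus L1, and 2691 and 18369 for M7 versus L2. Median ratio rescaling gave 4979 higher for M7 versus L1 and 5033 for M7 versus L2. Quantile normalization gave 7694 and 7582 higher, and 8771 lower for M7 versus L2. With a library left out, 7896 to 10143, 2807 to 4046 and 2134 to 3280 were higher and 4445 to 5825, 10873 to 12860 and 16474 to 19011 lower.

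Some fits were chosen after seeing the data. Without Caryophyllales, Quercus suber and Hordeum vulgare matches, 3079 unigenes were lower for L2 versus L1. With both L1 replicate 3 and M7 replicate 1 left out, 2 other names were higher for L2 versus L1, 2 for M7 versus L1 and 2 for M7 versus L2, and 4090 of all unigenes were higher for M7 versus L2. The median of the 4 unigenes was then -4.24 for M7 versus L1 and -2.09 for M7 versus L2, and TRINITY_DN2616_c0_g1 changed from -0.34 to 0.46 for M7 versus L1 (limma adjusted p = 0.0285). The causes were not tested.

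Deviations of samples with the same replicate number correlated at -0.053 to 0.053, and those with different numbers at -0.076 to 0.079. The numbers are not stated to pair the plants, and these values cannot settle whether they do. A replicate block gave 8772 higher and 4942 lower unigenes for L2 versus L1, 3026 and 11935 for M7 versus L1, and 2545 and 18170 for M7 versus L2, with 0 higher and 2, 5 and 4 lower among the other terpene synthase names. Of 1920 values of 37 named entries over all alternatives, 1804 kept their side of the threshold, 62 lost the call, 53 gained it and 1 reversed. A change of direction was counted as reversed only where a call was made in either fit. The 1804 can therefore include changes of direction without a call. Some unigenes were entered both as a rise and as a fall, and their values were counted once.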
